A study of Mus musculus with 12 samples.

Results

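The genes that encode matrix proteases and their inhibitors were followed through the isolation and culture of mouse liver cells. The set was chosen by name, with earlier results of these data known, and held 10 of the 32285 genes measured. These were the metalloproteinase inhibitors Timp1, Timp2 and Timp3 and the matrix metalloproteinases Mmp14, Mmp15 and Mmp19. With them were the secreted ADAMTS proteases Adamts1 and Adamts9, the urokinase protease Plau and its receptor Plaur. All 10 were found. Their RNA was counted in single nuclei of 24 samples, 3 from each of 8 wild-type (WT) male mice aged 10 to 12 weeks, whose strain is C57BL6J in the labels and C57BL/6NTac in the study's methods. The Liver sample was a piece of lobe that had been tied off after the blood was flushed out and was then frozen. The Cell Suspension sample was taken from the same liver after collagenase perfusion, straining and low-speed spins, steps that enrich hepatocytes. The Primary Hepatocytes sample was plated on collagen and left to attach in plating medium. It was then kept overnight in medium with dexamethasone and insulin, for 24 h of culture in all, and released with trypsin. No mouse carried an engineered allele, and no group received a further agent. Whether a value was higher or lower in a later group therefore answers how these genes moved with the isolation and the day of culture as a whole.

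Metalloproteinases cut collagens, proteoglycans and cell surface proteins at a zinc site. The membrane-bound members, Mmp14 and Mmp15, work at the cell surface, and Mmp14 is best known for activating the proenzyme of MMP2 in a complex with TIMP2. The TIMP proteins block the zinc site, and TIMP3 differs from the others in binding to the matrix itself. Urokinase, held at the surface by its receptor, turns plasminogen, a protein made in large amounts by hepatocytes, into plasmin, which cuts fibrin and matrix. In liver the fat-storing stellate cells and the endothelial cells of the sinusoids lie against the thin matrix that hepatocytes also border.

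The nuclei kept were 53467, and the molecules counted per sample (unique molecular identifiers, UMIs) ranged from 2709659 to 32104065. Levels are given as CPM, the UMIs of the gene for each 1000000 UMIs in the same kind of nuclei of the same sample. They are given as the mean ± SD of 8 samples where no other number is named, or as the lowest, the median and the highest sample. They are not scaled by gene length and are therefore not compared between genes. Fold changes are on the log2 scale, with the standard error. They and their p-values come from the quasi-likelihood test of edgeR, and p was adjusted over all genes tested by the Benjamini-Hochberg method and called at 0.05. The TMM scaling of that test set the median log2 change of all genes in hepatocyte nuclei near 0. Without it the median moved by -0.15 from Liver to Cell Suspension, by 0.69 from Cell Suspension to Primary Hepatocytes and by 0.53 from Liver to Primary Hepatocytes, so fitted changes are relative to the other genes. Against the cultures fitted increases are smaller, and fitted decreases larger, than the ratio of the CPM values. Samples were mixed in 6 pools of 4, and both Liver and Primary Hepatocytes were present in pools 2 and 5 only. Across pools, 337 barcodes occurred more than once, and nuclei were told apart by pool. Cell types are those of the authors' table of nuclei, with its cultured clusters 0, 1, 14 and 17 counted as hepatocytes, cluster 12 as endothelial and cluster 27 as stellate. Cluster 8, with 1450 nuclei in Primary Hepatocytes samples, was left out of these types.

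The named types carried their own markers. In hepatocyte nuclei the sum of 8 hepatocyte markers had a median of 13755 CPM in Liver, 16791 in Cell Suspension samples and 3415 in Primary Hepatocytes. In endothelial nuclei 10 endothelial markers summed to medians of 13530, 11731 and 6721 CPM, with none of them at 0. The endothelial markers in hepatocyte nuclei came to 45.1, 64.1 and 117 CPM and the stellate markers there to 40.8, 39.3 and 182 CPM, with one culture at 657 CPM. The 8 leukocyte markers came to 19.0, 12.3 and 56.5 CPM, the lowest culture (38.1 CPM) being above the highest Liver sample (29.0 CPM), and the 8 Kupffer markers to 11.9, 15.2 and 13.4 CPM. The 8 biliary markers came to 174, 165 and 207 CPM and 6 mesothelial markers to 4.39, 3.60 and 7.78 CPM. All these sums of other cell types in hepatocyte nuclei but the Kupffer sum thus had their highest median in Primary Hepatocytes. Their part in the changes of single genes was not tested.

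In hepatocyte nuclei Mmp14, Adamts1 and Plaur were higher in the cultures than in either earlier group, and Timp3, Mmp15 and Mmp19 were lower. Between Liver and Primary Hepatocytes 8 of the 10 genes were called, where 54.1% of the 26521 genes tested were called. Timp1, Mmp14, Adamts1, Adamts9 and Plaur rose (27.4% of all genes rose) and Timp3, Mmp15 and Mmp19 fell (26.7% fell). Between Cell Suspension and Primary Hepatocytes 6 were called, a share near the 51.6% of all genes, of which Mmp14, Adamts1 and Plaur rose (27.6% rose) and Timp3, Mmp15 and Mmp19 fell (24% fell). Between Liver and Cell Suspension, before any culture, 2 were called against 21.5% of all genes, Adamts1 and Adamts9, both higher (7.69% rose). The median log2 change of the set was 0.19 from Liver to Cell Suspension, 0.15 from Cell Suspension to Primary Hepatocytes and 0.57 from Liver to Primary Hepatocytes, beside 0.01, 0.01 and 0.04 for all genes tested.

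**Figure D1:**
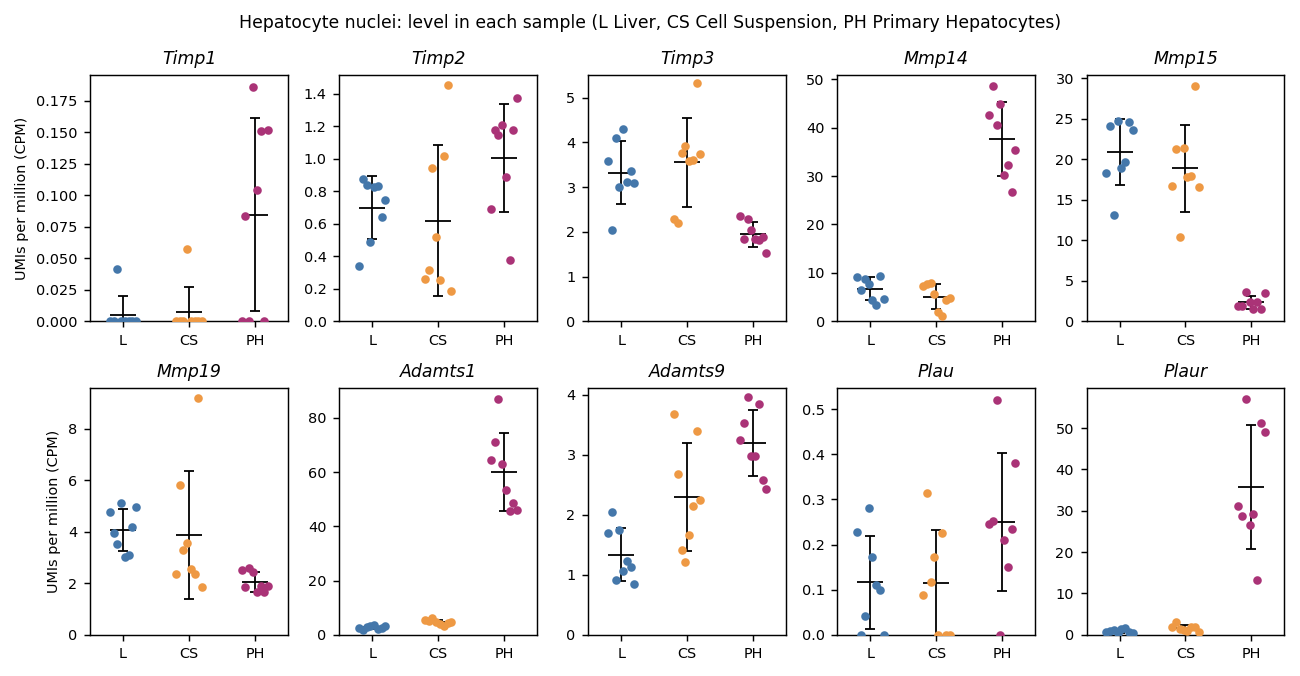
Level of each gene in hepatocyte nuclei, as CPM (y axis starting at 0, a scale of its own for each gene), in Liver (L), Cell Suspension (CS) and Primary Hepatocytes (PH). Points are the 8 samples of a group, and bars are the mean ± SD. The points of Mmp14, Adamts1 and Plaur in PH lie above those of L and CS, and those of Mmp15 lie below them.

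Of the inhibitors, Timp3 (chr10:86300372-86349506, GRCm38, plus strand) was the one with a decrease in hepatocyte nuclei. Its level was 2.04, 3.24 and 4.31 CPM (lowest, median, highest) in Liver samples, 2.20, 3.67 and 5.33 in Cell Suspension and 1.52, 1.86 and 2.36 in Primary Hepatocytes. The Primary Hepatocytes samples were mostly below the others, with ranges that met at the edges. Timp3 fell by 1.52 ± 0.19 on the log2 scale from Cell Suspension (adjusted p = 3.8e-08) and by 1.35 ± 0.18 from Liver (adjusted p = 1.01e-07). On unscaled library sizes the decreases were -0.82 and -0.79, both called. Endothelial nuclei held Timp3 at medians of 1485%, 1651% and 612% of the hepatocyte level in the groups. Whether RNA of other cells made up part of the hepatocyte Timp3 values was not tested. The gene lies within Syn3, which is read from the other strand and stood at 73.6, 70.4 and 53.6 CPM in the same nuclei, and the strand setting of the counting is not given in the sources used here.

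Timp2 (chr11:118301069-118355740, minus strand), the inhibitor that also takes part in the activation of MMP2, was low in hepatocyte nuclei and was called there in none of the comparisons as fitted with TMM scaling. It measured 0.699 ± 0.194 CPM in Liver, 0.618 ± 0.463 in Cell Suspension samples and 1.00 ± 0.330 in Primary Hepatocytes, and the ranges of all groups overlapped. The fitted change from Liver to Primary Hepatocytes was -0.06 ± 0.28 (adjusted p = 0.887). From Cell Suspension it was 0.12 (adjusted p = 0.801), and on unscaled library sizes 0.82 (adjusted p = 0.0351). Timp1 (chrX:20870166-20874735, plus strand, within Syn1), an inhibitor known for its induction in injured liver, was almost absent from the nuclei of every type. Hepatocyte nuclei held 1 UMI of it in all Liver samples together, 1 in Cell Suspension and 9 in Primary Hepatocytes, and 7, 7 and 3 samples of the groups stood at 0. The fitted change of 2.06 ± 0.75 from Liver to Primary Hepatocytes had an adjusted p of 0.0248 with edgeR, of 0.17 with DESeq2 and of 0.0912 with the pool as a covariate. The ratio of the pooled levels, 11.4, had a 95% exact interval of 1.58 to 501, which covers counting error only.

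Mmp14 and Mmp15, the membrane-anchored metalloproteinases of the set, moved in opposite directions in hepatocyte nuclei. Mmp14 (chr14:54431612-54445364, plus strand) stood at 3.34, 7.13 and 9.43 CPM (lowest, median, highest) in Liver, at 1.13, 5.22 and 8.0 in Cell Suspension and at 26.6, 37.9 and 48.6 in Primary Hepatocytes. Every cultured sample was above every other sample. The gene rose by 2.14 ± 0.27 from Cell Suspension (adjusted p = 5.72e-08) and by 1.93 ± 0.25 from Liver (adjusted p = 1.12e-07), and it was not called between Liver and Cell Suspension (-0.21 ± 0.27, adjusted p = 0.669). Inside pools 2 and 5 the log2 ratio of CPM between Primary Hepatocytes and Liver was 2.55 to 3.06.

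Mmp15 (chr8:95352268-95375080, plus strand) was the most strongly lowered gene of the set in hepatocyte nuclei. It measured 13.1, 21.6 and 24.7 CPM in Liver samples, 10.4, 17.9 and 29.1 in Cell Suspension and 1.57, 2.13 and 3.65 in Primary Hepatocytes. All cultured samples lay below all others, while Liver and Cell Suspension overlapped fully. The decrease was -3.67 ± 0.19 from Cell Suspension (adjusted p = 2.23e-16) and -3.69 ± 0.19 from Liver (adjusted p = 1.04e-16), or -2.99 and -3.16 on unscaled library sizes, against -0.01 ± 0.16 between Liver and Cell Suspension (adjusted p = 0.973). In the 4 pools that held both Cell Suspension and Primary Hepatocytes, the log2 ratio of CPM lay between -3.14 and -2.58.

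Mmp19 (chr10:128790910-128800824, plus strand), a secreted metalloproteinase, fell less. Its level was 3.03, 4.07 and 5.11 CPM in Liver, 1.87, 2.93 and 9.20 in Cell Suspension samples and 1.65, 1.89 and 2.61 in Primary Hepatocytes. The Primary Hepatocytes samples were below all Liver samples and overlapped the Cell Suspension samples. The change was -1.51 ± 0.21 from Liver (adjusted p = 2.12e-07) and -1.46 ± 0.22 from Cell Suspension (adjusted p = 1.32e-06), and on unscaled library sizes -0.98 and -0.78, both called. Within pools the CPM of Mmp19 was lower in Primary Hepatocytes than in Cell Suspension in 3 and higher in 1 of 4. It overlaps Tmem198b on the other strand, which stood at 1.78, 1.20 and 0.993 CPM over the pooled hepatocyte nuclei of the groups.

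Adamts1 was the one gene of the set called at both steps in hepatocyte nuclei. The secreted protease, encoded at chr16:85793827-85803113 on the minus strand, cuts proteoglycans such as versican and aggrecan. It measured 1.60, 2.66 and 3.72 CPM (lowest, median, highest) in Liver samples, 3.27, 4.78 and 6.0 in Cell Suspension and 45.5, 58.3 and 86.8 in Primary Hepatocytes. Liver and Cell Suspension shared only the edges of their ranges, and every cultured sample was far above them. It rose by 0.93 ± 0.18 from Liver to Cell Suspension (adjusted p = 0.000241), by a further 2.94 ± 0.17 to Primary Hepatocytes (adjusted p = 4.22e-15) and by 3.87 ± 0.17 from Liver to Primary Hepatocytes (adjusted p = 7.66e-18). Within pools the CPM was higher in Cell Suspension than in Liver in 4 of 4 pools, by 0.34 to 0.65 on the log2 scale. It was higher in Primary Hepatocytes than in Cell Suspension in 4 of 4, by 3.38 to 3.84. Endothelial nuclei held Adamts1 at medians of 593%, 1735% and 302% of the hepatocyte level in the groups. The part of RNA of other cells in the hepatocyte Adamts1 values was not tested.

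Adamts9 (chr6:92772699-92943492, minus strand), another proteoglycan-cutting protease, was called between Liver and each later group in hepatocyte nuclei, and not between the later groups. Its level was 0.842, 1.18 and 2.04 CPM in Liver, 1.21, 2.19 and 3.68 in Cell Suspension samples and 2.44, 3.12 and 3.96 in Primary Hepatocytes. The cultured samples were above all Liver samples, and the Cell Suspension samples overlapped both. The change from Liver was 0.92 ± 0.22 to Cell Suspension (adjusted p = 0.00195) and 0.76 ± 0.20 to Primary Hepatocytes (adjusted p = 0.00146). Between Cell Suspension and Primary Hepatocytes the fitted change was -0.16 ± 0.20 (adjusted p = 0.56), and on unscaled library sizes it was 0.53 (adjusted p = 0.039), so no direction is given for that step. With the pool as a covariate the change from Liver to Primary Hepatocytes was 0.52 (adjusted p = 0.12). Droplets with few UMIs, which hold free RNA, carried more Adamts9 than these nuclei in every pool. Endothelial nuclei held it at medians of 3974%, 2241% and 13513% of the hepatocyte level in the groups. Whether RNA of other cells made up part of the hepatocyte values was not tested.

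Plaur, the urokinase receptor (chr7:24462484-24475968, plus strand), had the largest increase of the set. Hepatocyte nuclei held 0.468, 0.806 and 1.72 CPM of it in Liver samples, 0.747, 1.55 and 3.14 in Cell Suspension and 13.3, 30.2 and 56.9 in Primary Hepatocytes. The lowest cultured sample, that of mouse 6, was still above the highest of the other groups. The fitted change was 4.65 ± 0.29 from Liver (adjusted p = 1.66e-14) and 3.78 ± 0.30 from Cell Suspension (adjusted p = 3.52e-12). From Liver to Cell Suspension it was 0.86 ± 0.34, short of the threshold (adjusted p = 0.0735), and it was called under several other settings, among them DESeq2 (0.98, adjusted p = 0.016). Plau itself (chr14:20836660-20843385, plus strand) was barely present in hepatocyte nuclei, with 18, 9 and 27 UMIs in the groups, and its change from Liver to Primary Hepatocytes was 0.38 ± 0.48 (adjusted p = 0.545). The receptor thus rose where the protease was not detectably changed at this depth.

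Promoter stretches of Mmp14, Adamts1 and Plaur are shown because these genes rose together in hepatocyte nuclei, each with all cultured samples above the others. They are the 120 bases before the start of the RefSeq gene, 5′ to 3′ on the gene's strand, from the GRCm38.p6 table, in which 8 of the 10 genes have an entry (not Mmp19 and Plau). Capitals mark matches to the GC box GGGCGG, the AP-1 motif TGANTCA and the TATA box TATAAA, each searched on both strands.
Mmp14, chr14:54431478-54431597, plus strand: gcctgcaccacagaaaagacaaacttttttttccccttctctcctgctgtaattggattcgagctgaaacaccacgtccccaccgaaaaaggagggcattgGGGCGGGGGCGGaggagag
Adamts1, chr16:85803114-85803233, minus strand: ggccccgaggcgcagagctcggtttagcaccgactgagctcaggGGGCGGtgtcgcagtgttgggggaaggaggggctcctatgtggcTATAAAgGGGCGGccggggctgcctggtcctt
Plaur, chr7:24462363-24462482, plus strand: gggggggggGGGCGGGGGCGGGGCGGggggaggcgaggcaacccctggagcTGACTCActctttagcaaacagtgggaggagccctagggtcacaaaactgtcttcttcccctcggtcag
The Plaur stretch held an AP-1 match that begins 69 bases before the start, a motif present in 7.81% of 32851 promoter windows, which run from 250 bases before to 50 bases after a start. The Adamts1 stretch held a TATA box 32 bases before the start, a motif in 13.6% of windows and in no other window of the set. GC boxes, found in 35.7% of all windows, were in the windows of all 8 genes, and in Plaur 3 of them lie next to each other. These matches describe the letters of the windows only.

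In endothelial nuclei the proteases Adamts9, Adamts1 and Mmp14 and the receptor Plaur were higher in the cultures than in Liver, and the inhibitors Timp2 and Timp3 were lower. Of the 9 genes tested there (Timp1 had 1 UMI in all), 6 were called between Liver and Primary Hepatocytes, where 33.8% of 18279 genes were called. Adamts9, Adamts1, Plaur and Mmp14 rose (15.4% of all genes rose), and Timp3 and Timp2 fell (18.4% fell). Between Cell Suspension and Primary Hepatocytes 4 were called against 20% of all genes, with Adamts9, Plaur and Mmp14 higher (9.33% rose) and Timp3 lower (10.7% fell). Between Liver and Cell Suspension 1 was called against 3.9% of all genes, Adamts1, which was higher (2.03% rose).

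**Figure D2:**
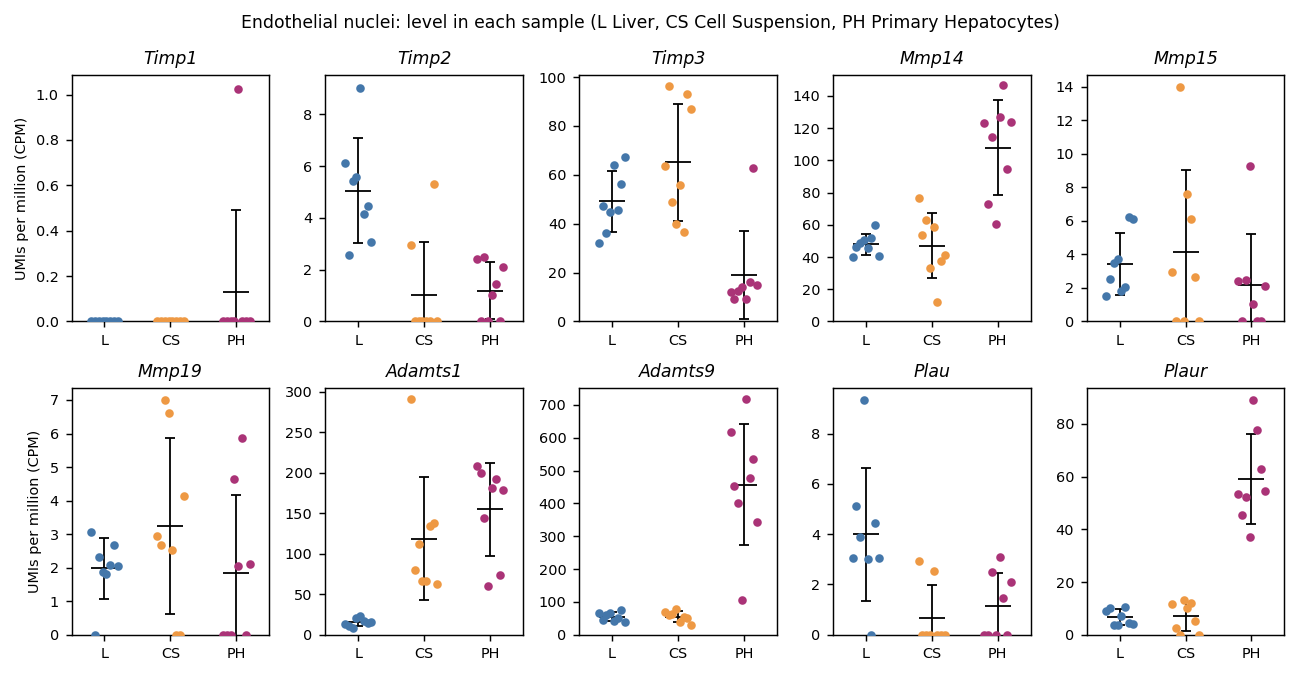
Level of each gene in endothelial nuclei, as CPM (y axis starting at 0, a scale of its own for each gene), in Liver (L), Cell Suspension (CS) and Primary Hepatocytes (PH). Points are the 8 samples of a group, and bars are the mean ± SD. Adamts1 is already high in CS, while Adamts9 and Plaur are high in PH alone.

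Adamts9 measured 38.8, 55.0 and 74.0 CPM (lowest, median, highest) in endothelial nuclei of Liver, 29.0, 56.9 and 79.5 in Cell Suspension and 107, 465 and 718 in Primary Hepatocytes. Each cultured sample was above every sample of the other groups, and the cultured samples themselves were spread widely. The log2 change was 0.04 between Liver and Cell Suspension (adjusted p = 0.969), 2.88 ± 0.25 from there to Primary Hepatocytes (adjusted p = 7.63e-12) and 2.92 ± 0.22 over both steps (adjusted p = 5.79e-14). In pools 2 and 5 the CPM was higher in Primary Hepatocytes than in Liver by 0.67 and 3.18 on the log2 scale. Of the 1809 endothelial nuclei of the cultures 1733 lay in cluster 12, where the lowest sample stood at 244 CPM. Without nuclei annotated against their sample type the change was 3.17 from Cell Suspension and 3.10 from Liver. The part of such nuclei in the low values was not tested. Adamts9 overlaps 3 genes of the other strand, and 9530026P05Rik, one of them, went from 678 to 488 to 383 CPM in the pooled endothelial nuclei, opposite in direction to Adamts9. In hepatocyte nuclei it stood at 4.81, 4.65 and 6.09 CPM. Whether reads of the other strand were counted for Adamts9 cannot be told here, since the strand setting is not given.

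Adamts1 rose at the isolation step in endothelial nuclei and was not called between Cell Suspension and Primary Hepatocytes. It stood at 8.53, 15.3 and 23.5 CPM in Liver, at 62.2, 96.0 and 291 in Cell Suspension and at 60.4, 180 and 208 in Primary Hepatocytes. Both later groups lay above Liver without overlap and overlapped each other. The change was 3.09 ± 0.29 from Liver to Cell Suspension (adjusted p = 2.77e-10), 0.17 ± 0.26 from Cell Suspension to Primary Hepatocytes (adjusted p = 0.724) and 3.26 ± 0.29 from Liver to Primary Hepatocytes (adjusted p = 2.04e-12). With spliced and ambiguous UMIs alone the second of these was 0.67 (adjusted p = 0.036). In each of the 4 pools with both groups the CPM was higher in Cell Suspension than in Liver, by 1.496 to 3.58 on the log2 scale.

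Plaur and Mmp14 also rose in endothelial nuclei of the cultures. Plaur measured 3.73, 5.84 and 10.4 CPM in Liver, 0, 7.73 and 13.3 in Cell Suspension samples and 37.2, 54.0 and 89.2 in Primary Hepatocytes, the cultured samples being all above the rest. Its change was 2.87 ± 0.35 from Cell Suspension (adjusted p = 1.29e-08) and 3.18 ± 0.28 from Liver (adjusted p = 1.57e-12). Mmp14 measured 39.8, 47.5 and 59.7 CPM in Liver samples, 12.2, 47.5 and 76.7 in Cell Suspension and 60.4, 119 and 147 in Primary Hepatocytes, apart from Liver and overlapping Cell Suspension at the edge. The change of Mmp14 from Liver was 1.12 ± 0.19 (adjusted p = 8.85e-06), and 0.60 (adjusted p = 0.12) with the pool as a covariate. From Cell Suspension it was 0.99 ± 0.22 (adjusted p = 0.000567).

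Timp3 and Timp2 fell from Liver to Primary Hepatocytes in endothelial nuclei. Timp3 stood at 32.1, 46.6 and 67.3 CPM in Liver, 36.7, 59.6 and 96.3 in Cell Suspension samples and 9.09, 13.2 and 63.0 in Primary Hepatocytes. Apart from the culture of mouse 7, whose 63.0 CPM rest on 6 UMIs, the cultured samples lay below all others. In cultured cluster 12 alone the highest sample held 16.4 CPM. The decrease was -2.39 ± 0.28 from Cell Suspension (adjusted p = 9.29e-09) and -1.88 ± 0.27 from Liver (adjusted p = 2.62e-07). Without nuclei annotated against their sample type it was -2.87 and -2.34, both called. Timp2 had 48, 4 and 5 UMIs in the groups, and its change from Liver to Primary Hepatocytes was -1.80 ± 0.54 (adjusted p = 0.00829). With DESeq2 it was -1.65 (adjusted p = 0.056), with the pool as a covariate -2.23 (adjusted p = 0.062) and without mouse 5 -1.44 (adjusted p = 0.071), so that this call rested on few molecules. Mmp15, Mmp19 and Plau had between 3 and 34 UMIs in each group, and edgeR called none of them on all UMIs. On unspliced UMIs alone Plau was called from Liver to Primary Hepatocytes (-2.39, adjusted p = 0.0282). In endothelial nuclei 6 markers of mesothelial cells summed to medians of 92.9, 24.4 and 10.6 CPM in the groups. The part of mesothelial RNA in the Timp2 and Timp3 values was not tested.

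Hepatocyte RNA in endothelial nuclei was measured beside these values. Hepatocyte markers summed to a median of 2711, 3666 and 2717 CPM in endothelial nuclei. The single markers reached medians of 12.6% to 35.4% of their hepatocyte level in Liver samples, 16.5% to 37.9% in Cell Suspension and 28.8% to 210% in Primary Hepatocytes. In Primary Hepatocytes samples the endothelial level of Adamts9 was a median of 13513% of the hepatocyte level, that of Timp3 612%, of Mmp14 320% and of Adamts1 302%. Plaur stood at 149%, inside the range of the hepatocyte markers, and Mmp15 and Mmp19 at 62.7% and 55.2%. In Liver and Cell Suspension samples Mmp15 stood at 12.9% and 13.4%, near or below the lowest of the marker medians there. The part of hepatocyte RNA in the endothelial Plaur and Mmp15 values was not tested. Droplets with few UMIs, which hold free RNA, carried Adamts1 at 4.10 to 56.2 CPM in the 6 pools, Plaur at 0 to 26.6 and Adamts9 at 10.6 to 20.5.

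The changes differed between endothelial and hepatocyte nuclei for several genes when the difference itself was tested, with the sample as a block. The median difference of all genes was -0.19 from Liver to Cell Suspension, 0.30 from there to Primary Hepatocytes and 0.11 over both steps. Without scaling factors it moved by 0.20, -0.64 and -0.44, so single differences are to be read against it. From Liver to Cell Suspension the increase of Adamts1 was larger in endothelial nuclei by 1.93 ± 0.30 on the log2 scale (adjusted p = 1.12e-06) and that of Adamts9 was smaller, by -1.07 ± 0.30 (adjusted p = 0.0254). These were 2 of the 10 genes, with 2.8% of 26796 genes called, and the call of Adamts9 was lost with RLE normalization, with filterByExpr, on unscaled library sizes, on unspliced UMIs, without the block and without mouse 1, 3, 6, 7 or 8. From Cell Suspension to Primary Hepatocytes 4 differed, with 20% of all genes called. The change in endothelial nuclei exceeded that in hepatocyte nuclei by 3.17 ± 0.29 for Adamts9 (adjusted p = 1.91e-17) and by 2.67 ± 0.89 for Mmp15 (adjusted p = 0.0207). It was lower by -1.03 ± 0.28 for Mmp14 (adjusted p = 0.00256) and by -2.48 ± 0.26 for Adamts1 (adjusted p = 1.63e-14). The Mmp15 call rested on 9 and 6 endothelial UMIs and was lost on unscaled library sizes (adjusted p = 0.0889), on spliced and ambiguous UMIs (0.85, adjusted p = 0.842), without nuclei annotated against their sample type (adjusted p = 0.103), and without mouse 1, 2, 4, 7 or 8 (1.79 to 2.45). The Mmp14 call was lost on unspliced UMIs (-0.55, adjusted p = 0.388). Timp3 did not pass (-0.67, adjusted p = 0.23), but it was called on unscaled library sizes (-1.33, adjusted p = 0.00358), on spliced and ambiguous UMIs (-1.09, adjusted p = 0.0155), without nuclei annotated against their sample type (-1.09, adjusted p = 0.0303) and without mouse 4 or 7. From Liver to Primary Hepatocytes 5 differed, with 25.8% of all genes called. Adamts9 (2.09 ± 0.25, adjusted p = 9.19e-12) and Mmp15 (2.54 ± 0.83, adjusted p = 0.0131) were higher in the endothelial contrast. Plaur (-1.32 ± 0.37, adjusted p = 0.00329), Mmp14 (-0.82 ± 0.23, adjusted p = 0.0033) and Timp2 (-1.71 ± 0.67, adjusted p = 0.0483) were lower in it. On spliced and ambiguous UMIs the difference of Adamts9 was 1.17 (adjusted p = 0.113) and that of Plaur 0.044 (adjusted p = 1), so neither was called there. On unspliced UMIs that of Mmp14 was -0.58 (adjusted p = 0.142), and without the block its call was lost as well (-0.78, adjusted p = 0.0727). Timp2 was not called on either kind of UMI, without nuclei annotated against their sample type (-1.41, adjusted p = 0.128) or without mouse 1, 4, 5, 7 or 8. Timp3 (-0.47, adjusted p = 0.364) was called on unscaled library sizes (-0.91, adjusted p = 0.0356) and on spliced and ambiguous UMIs (-0.82, adjusted p = 0.0493). Here too the Mmp15 call was lost on spliced and ambiguous UMIs (1.38, adjusted p = 0.543), without nuclei annotated against their sample type (adjusted p = 0.0751) and without mouse 4 (1.85, adjusted p = 0.155). Over both steps Adamts1 differed by -0.55 ± 0.27 (adjusted p = 0.135). It was called on unscaled library sizes (adjusted p = 0.00467), with filterByExpr (-0.77, adjusted p = 0.0415), on spliced and ambiguous UMIs (-0.79, adjusted p = 0.0227) and without mouse 1, 3, 6 or 8 (-0.76 to -0.70). Plau, uncalled in the main fit, was called on unscaled library sizes (-2.18, adjusted p = 0.0246). Mmp19, uncalled there too, was called without nuclei annotated against their sample type (1.87, adjusted p = 0.0389).

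**Figure D3:**
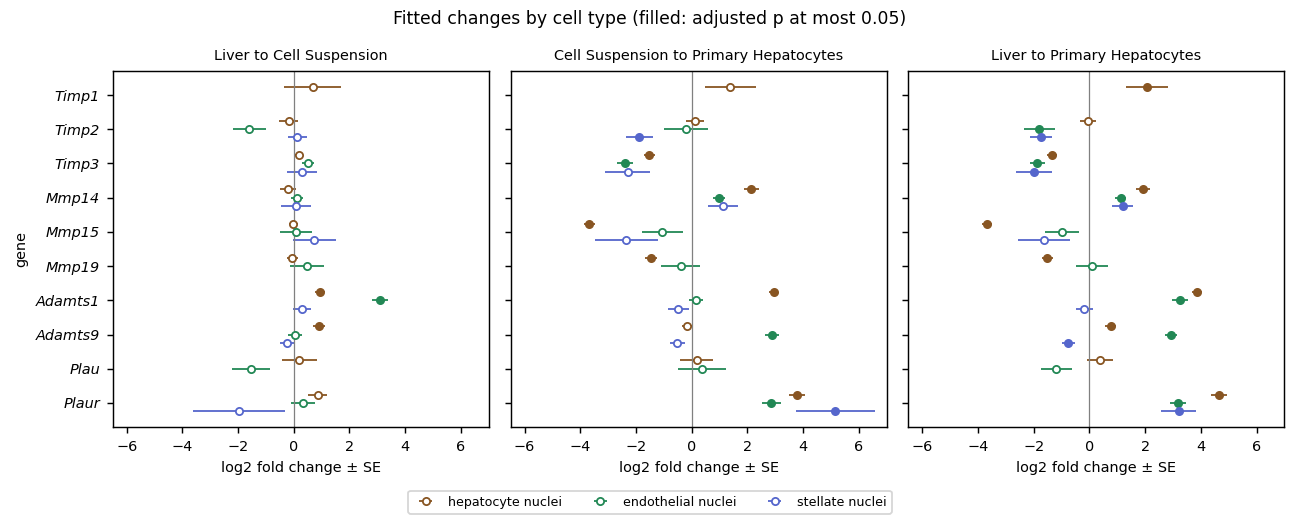
Fitted log2 fold change ± SE (x axis) of each gene (y axis) for the 3 comparisons, one panel each, in hepatocyte, endothelial and stellate nuclei. Filled points have an adjusted p of at most 0.05. Adamts1 is filled in endothelial nuclei from Liver to Cell Suspension (3.09) and in hepatocyte nuclei mainly from Cell Suspension to Primary Hepatocytes (2.94), and Adamts9 lies far to the right in endothelial nuclei alone. The stellate Plaur point from Cell Suspension on is fitted against 0 UMIs, and its place is not a measured size.

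Stellate nuclei, the cells known for making and remodelling liver matrix, held high levels of Adamts9 at each stage. There were 880 such nuclei in Liver, 148 in Cell Suspension (7 samples with at least 10 nuclei) and 192 in Primary Hepatocytes. Adamts9 measured 179, 303 and 507 CPM (lowest, median, highest) in Liver, 148, 339 and 504 in Cell Suspension samples and 171, 250 and 429 in Primary Hepatocytes, with ranges that overlapped throughout. The change from Liver to Primary Hepatocytes was -0.77 ± 0.23 (adjusted p = 0.00948), but the median of all genes moved by 0.46 with the scaling here, and with RLE normalization, DESeq2 or unscaled library sizes the value was -0.28 to -0.27 and not called. Nor was it called without mouse 2 or 7 (-0.48 and -0.44). The gene 9530026P05Rik on the other strand stood at 2435, 1606 and 929 CPM in the pooled stellate nuclei of the groups, and its part in the Adamts9 values was not tested. Between Liver and Cell Suspension none of the 7 genes tested was called by edgeR or DESeq2, where edgeR called 2.27% of 14340 genes. An unadjusted p under 0.05 was reached by 0 genes with edgeR and by 1 with DESeq2.

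The other stellate changes appeared in the culture. Between Liver and Primary Hepatocytes 5 of 7 were called against 24.8% of all genes, with Mmp14 and Plaur higher (8.2% rose) and Timp2, Timp3 and Adamts9 lower (16.6% fell). Between Cell Suspension and Primary Hepatocytes 2 were called against 10.8% of all genes, Plaur as higher (4.29% rose) and Timp2 as lower (6.56% fell). Timp2 went from 25.4, 64.4 and 84.1 CPM in Liver and 39.5, 72.4 and 158 in Cell Suspension to 0, 11.8 and 61.3 in Primary Hepatocytes, where 4 samples held none. It fell by 1.75 ± 0.40 from Liver (adjusted p = 0.000396) and by 1.88 ± 0.49 from Cell Suspension (adjusted p = 0.00483), the latter not called on unspliced UMIs (-1.40, adjusted p = 0.189). Mmp14 went from 21.0 ± 7.03 CPM in Liver to 66.1 ± 32.6 in Primary Hepatocytes (1.19 ± 0.36, adjusted p = 0.0096), and with the pool as a covariate the change was 0.74 (adjusted p = 0.53) and on spliced and ambiguous UMIs 0.22 (adjusted p = 0.765). Timp3 had 74 UMIs in Liver and 4 in Primary Hepatocytes, and its decrease (-1.99 ± 0.65, adjusted p = 0.0173) was not called with RLE normalization (-1.56, adjusted p = 0.0941), with DESeq2 (-1.55, adjusted p = 0.0991), on unscaled library sizes (-1.56, adjusted p = 0.0958) or with the pool as a covariate (adjusted p = 0.0787). Without mouse 1, 7 or 8 it was not called either (-1.75, -1.76 and -1.71). From Cell Suspension Timp3 was just short of the threshold (-2.29, adjusted p = 0.0531), and it was called with DESeq2 (-2.24, adjusted p = 0.0376) and without mouse 1, 2 or 6. Plaur had 6 UMIs in Liver, none in Cell Suspension and 17 in Primary Hepatocytes. Its pooled level in Primary Hepatocytes was 17.1 times that in Liver (95% exact interval 6.43 to 52.9, counting error only) and at least 3.66-fold higher than a floor of 3 UMIs over the stellate nuclei of the 7 Cell Suspension samples. With the pool as a covariate its change from Liver was not called (adjusted p = 0.142), and DESeq2 gave no adjusted p for that from Cell Suspension. Adamts1 measured 72.5 ± 16.9, 124 ± 94.3 and 91.0 ± 29.7 CPM and was not called in stellate nuclei, which unlike the other types had a high level of it in Liver. Cultured stellate nuclei also carried less of their markers, with medians of 10876 and 10975 CPM in Liver and Cell Suspension and 4068 CPM in Primary Hepatocytes. The 10 endothelial markers in stellate nuclei had medians of 323, 215 and 570 CPM in the groups, up to 1272 CPM in a culture, and the 8 hepatocyte markers 3097, 4402 and 2034 CPM. The part of these shifts in the stellate changes was not tested.

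Kupffer cells, the macrophages of the liver, were measured in 919 nuclei of Liver and 342 of Cell Suspension. None of the 7 genes tested was called between these groups by edgeR or DESeq2, where edgeR called 1.25% of 13948 genes. An unadjusted p under 0.05 was reached by 2 genes with either tool, Plau (4 and 8 UMIs) and Adamts1 (2 and 5 UMIs), both with the higher level in Cell Suspension. Timp2 stood at 38.4 ± 8.25 CPM in Liver and 41.1 ± 28.2 in Cell Suspension, with overlapping ranges. Plaur, a receptor known from macrophages, stood at 24.5 ± 18.6 and 9.92 ± 16.8 CPM, 5 of the 8 Cell Suspension samples having none (-0.64 ± 0.59, adjusted p = 0.735). In Primary Hepatocytes 3 samples, those of mice 3, 5 and 8, held at least 10 Kupffer nuclei and were part of the same fit. Mmp14 stood there at 74.1, 67.5 and 212 CPM, from 2, 2 and 6 UMIs, against 5.11 CPM on average in Liver (3.70 ± 0.71, adjusted p = 0.000329) and 3.91 CPM in Cell Suspension (4.23 ± 0.85, adjusted p = 0.0013). Adamts1 had 1 UMI in each of the 3 samples and was called from Liver (4.29 ± 1.16, adjusted p = 0.0147) and not from Cell Suspension (adjusted p = 0.476). These were 2 of 7 genes called from Liver, where 5.67% of all genes were called, and 1 of 7 from Cell Suspension, where 2.55% were. Without mouse 8 Mmp14 was called in neither comparison (3.01, adjusted p = 0.0931, and 3.96, adjusted p = 0.093), nor was it on spliced and ambiguous UMIs (2.24, adjusted p = 0.164, and 3.90, adjusted p = 0.0874). Adamts1 was not called with the pool as a covariate (4.20, adjusted p = 0.142), DESeq2 gave it no adjusted p, and without any one of mice 1, 2, 3, 4, 5 and 8 it had too few counts to be tested. Timp2 had no UMI in the 3 samples and was not called (adjusted p = 0.0619 from Liver), except without mouse 6 (adjusted p = 0.0445). The Kupffer markers in these nuclei had a median of 1964 CPM, against 6099 in Liver. The hepatocyte markers had one of 4522 CPM, above the 3415 CPM in hepatocyte nuclei of the cultures. The stellate markers went from a median of 135 CPM in Liver to 371 CPM, and the endothelial markers from 701 to 176 CPM. The part of RNA of other cell types in these values was not tested.

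Which cells held the RNA of each gene shifted between the stages. In Liver, stellate nuclei held 58.5% of the Adamts9 UMIs, endothelial nuclei 24.6% and hepatocyte nuclei 10.7% (means of 8 samples). In Cell Suspension the shares were 29.3%, 29.7% and 31.6%, and in Primary Hepatocytes 8.37%, 63.9% and 23.7%. Adamts1 went from 50.3% in hepatocyte nuclei, 32.9% in stellate nuclei and 16.2% in endothelial nuclei to 49.2%, 6.25% and 42.8% in Cell Suspension, and then to 87.4% in hepatocyte nuclei. Plaur was spread over hepatocyte (44.9%), Kupffer (20.7%) and endothelial nuclei (18.7%) in Liver and lay in hepatocyte nuclei for 88.4% in Primary Hepatocytes. Hepatocyte nuclei held 97.1%, 97.3% and 90.5% of Mmp15 and 93.7%, 92.7% and 92.8% of Mmp19 in the groups. Their shares of all RNA were 88.7%, 91.0% and 92.4%, so that Mmp15 lay above them in Liver and Cell Suspension. Timp2 was the most mixed in Liver, with 33.9% in stellate, 18.9% in Kupffer and 17.5% in hepatocyte nuclei, and 73.8% of it was in hepatocyte nuclei after culture. Endothelial nuclei gave 41.8% of Timp3 in Liver and 17.2% in Primary Hepatocytes, while their share of all RNA went from 5.71% to 2.71%.

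**Figure D4:**
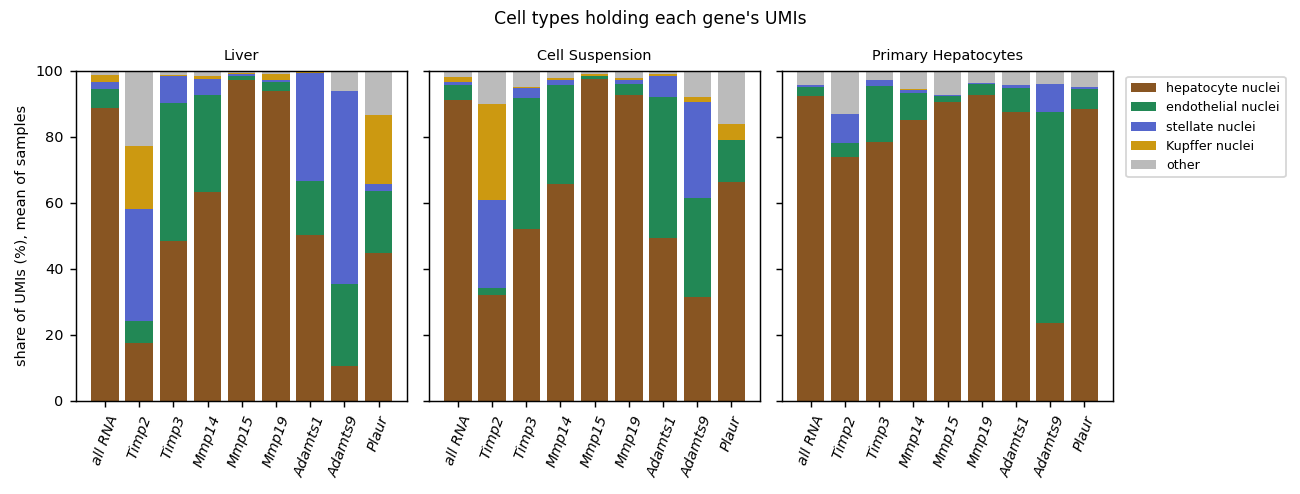
Share of each gene's UMIs (y axis, percent, mean over samples) that lay in hepatocyte, endothelial, stellate, Kupffer and other nuclei, with all RNA as the first bar, in a panel for each group. Adamts9 passes from mostly stellate nuclei in Liver (58.5%) to mostly endothelial nuclei in Primary Hepatocytes (63.9%).

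In sums over all nuclei, where fewer cells of a type and less RNA per cell cannot be told apart, 2 of the 10 genes were called between Liver and Cell Suspension (20.6% of 27269 genes were called). Timp2 fell by 0.91 ± 0.28 (adjusted p = 0.0205), among 12.6% of genes that fell, but it was not called with the pool as a covariate (-0.60, adjusted p = 0.21), on spliced and ambiguous UMIs (-0.41, adjusted p = 0.514) or without mouse 3, 5 or 8. Adamts1 rose by 1.33 ± 0.23 (adjusted p = 9.79e-05), among 8.01% that rose. Between Cell Suspension and Primary Hepatocytes 8 were called (50.8% of all genes), 4 higher (27.4% rose) and 4 lower (23.4% fell). Between Liver and Primary Hepatocytes 8 were called (55.7%), again 4 higher (28.6% rose) and 4 lower (27.1% fell). With the mouse as a replicate block 7 were called in each, without Adamts9 in the first (0.83, with the block 0.77 and adjusted p = 0.079) and without Timp1 in the second (1.48, with the block 1.60 and adjusted p = 0.0502). The call of Adamts9 was also lost with RLE normalization (adjusted p = 0.0551), DESeq2 (adjusted p = 0.0516), filterByExpr, the pool as a covariate (0.37, adjusted p = 0.418) and unspliced UMIs (adjusted p = 0.159), without nuclei annotated against their sample type (adjusted p = 0.0697) and without mouse 3, 5, 6 or 8. That of Timp1 was lost with DESeq2 (adjusted p = 0.118) and without mouse 1, 2, 4, 5, 6, 7 or 8, among other settings. The Timp2 level went from a median of 4.01 CPM in Liver samples, to 1.60 in Cell Suspension and 1.33 in Primary Hepatocytes, and over both steps it fell by 2.09 on the log2 scale (adjusted p = 1.74e-07), while its change in hepatocyte nuclei was not called. Adamts9 stood at 12.4 ± 3.86, 7.44 ± 4.21 and 17.9 ± 11.3 CPM over all nuclei. Its change from Liver to Primary Hepatocytes over all nuclei was 0.23 (adjusted p = 0.575). In endothelial nuclei its change was 2.92, and stellate nuclei numbered 880 in Liver and 192 in Primary Hepatocytes. The part of either in the level over all nuclei was not tested.

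The cultured clusters differed among themselves in the level of these genes. The clusters were made from the same nuclei, so their values are given without a test. Plaur stood at 55.5 ± 17.05 CPM in hepatocyte cluster 0, 17.6 ± 7.92 in cluster 1, 30.9 ± 13.7 in cluster 14 and 11.2 ± 6.88 in cluster 17, and the lowest sample of cluster 0 (32.7 CPM) was above the highest of cluster 1 (27.7 CPM). Mmp14 had the other order between the 2 largest clusters, with 28.3 ± 5.27 CPM in cluster 0 and 50.6 ± 11.9 in cluster 1, and stood at 46.2 ± 10.4 in cluster 14 and 24.4 ± 10.3 in cluster 17. Adamts1 measured 58.4 ± 13.9 CPM in cluster 0, 66.5 ± 25.3 in cluster 1, 36.2 ± 8.78 in cluster 14 and 84.0 ± 22.8 in cluster 17. In the endothelial cluster 12 the levels were 127 ± 30.8 CPM for Mmp14, 176 ± 38.8 for Adamts1, 70.5 ± 25.5 for Plaur and 585 ± 279 for Adamts9, the last ranging from 244 to 1180 CPM over the samples. The stellate cluster 27 held 311 ± 129 CPM of Adamts9 (7 samples), and the 4 hepatocyte clusters held 1.49 to 4.71 CPM.

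**Figure D5:**
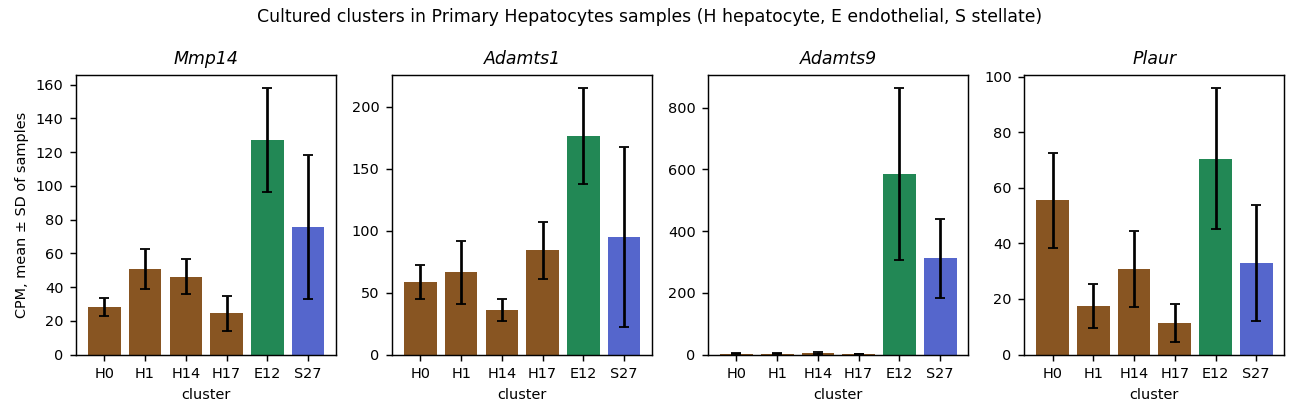
Level (CPM, mean ± SD of samples, y axis from 0) of Mmp14, Adamts1, Adamts9 and Plaur in the cultured clusters of Primary Hepatocytes samples. H0, H1, H14 and H17 are hepatocyte clusters, E12 is endothelial and S27 stellate. Plaur is higher in H0 (55.5) than in H1 (17.6), Mmp14 is higher in H1 (50.6) than in H0 (28.3), and Adamts9 is high in E12 and S27 only.

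The share of nuclei with a UMI was taken after thinning each nucleus to 1000 UMIs, with shallower nuclei left out. Of the hepatocyte nuclei 96.6%, 96.2% and 99.4% were deep enough in the groups, of the endothelial nuclei 93.5%, 68.7% and 73.4%, and of the Kupffer nuclei of Liver 88.7%. In hepatocyte nuclei Mmp14 was seen in 0.775%, 0.623% and 3.75% of nuclei in Liver, Cell Suspension and Primary Hepatocytes, and Adamts1 in 0.281%, 0.532% and 5.47%. Plaur was seen in 0.111%, 0.229% and 3.203%, and Mmp15 in 2.19%, 1.89% and 0.251%. Without thinning, the Primary Hepatocytes shares were 21.0% for Mmp14, 23.1% for Adamts1, 15.0% for Plaur and 1.57% for Mmp15, at a median of 6442.5 UMIs in the nuclei kept. In endothelial nuclei Adamts9 was seen in 5.07%, 4.97% and 29.6% after thinning and Adamts1 in 1.54%, 8.72% and 13.7%. Kupffer nuclei of Liver showed 0.0655% for Adamts1 and 0.121% for Adamts9 after the same thinning. Those kept held a median of 3025 UMIs before it, and the hepatocyte nuclei of Liver 8022.5. The hepatocyte share of Adamts9 in Liver was also low, at 0.204%. The Kupffer nuclei kept were 815, so their shares rest on few nuclei and give no firm background level.

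The matrices separate spliced, unspliced and ambiguous UMIs, and the genes of the set differ widely in how much unspliced RNA was counted. Over all nuclei 4229 of 4736 Plaur UMIs (89.3%), 3871 of 4694 for Adamts9, 3143 of 4424 for Mmp15, 3064 of 9003 for Adamts1 and 2388 of 6883 for Mmp14 were unspliced. None of 1073 Mmp19 UMIs and 1 of 1745 Timp3 UMIs were, and 6.12% of the 18298 genes with at least 200 UMIs had none at all. Timp1 had none among 18 UMIs. The levels of Mmp19, Timp3 and Timp1 thus rest almost only on spliced and ambiguous UMIs. Each of them overlaps a gene of the other strand, as does Adamts9. Why unspliced UMIs were lacking was not tested. Mmp15 showed a change in this share in hepatocyte nuclei, from 76.8% ± 3.86 (SD, n = 8, range 69.97% to 82.5%) in Liver to 61.0% ± 6.60 (51.1% to 70.5%) in Cell Suspension, with ranges that barely met (exact permutation p = 0.000311, adjusted over 5 tests 0.00155). In Primary Hepatocytes it was 60.6% ± 13.4 (35% to 76.9%), below Liver (exact permutation p = 0.00186, adjusted 0.00466), a comparison that was not run with ambiguous UMIs left out or at least 50 UMIs required, because a sample then fell under the minimum. Over all genes the unspliced share in hepatocyte nuclei went from 74.5% in Liver, to 66.9% in Cell Suspension samples and 64.7% in Primary Hepatocytes, so Mmp15 shifted in the direction of the whole. Mmp14 stood at 34.6% ± 7.15 and 33.9% ± 3.38 in Liver and in Primary Hepatocytes (two-sided exact permutation p = 0.821, adjusted 1). Between Cell Suspension and Primary Hepatocytes the Mmp15 share was not called (exact permutation p = 0.936). The remaining test of the 5, on Mmp19, could show no difference, because its share was 0% in every sample.

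Plasminogen, the substrate of urokinase, fell in hepatocyte nuclei while the receptor rose. Of 14 other genes of that system tested in hepatocyte nuclei between Liver and Primary Hepatocytes, 2 rose and 8 fell, with a median log2 change of -1.51, where 27.4% of all genes rose and 26.7% fell. Plat, the tissue plasminogen activator, rose from 0.156 to 1.27 CPM (2.34 ± 0.55). Plg, plasminogen itself, fell from 689 to 19.6 CPM (-5.69 ± 0.24). In endothelial nuclei 2 of 13 rose and 4 fell, where 15.4% of all genes rose and 18.4% fell. Serpinb8, a protease inhibitor of the serpin family, went from 6.77 to 2.63 CPM there (-1.95). Plg, a gene of hepatocytes, was listed in endothelial nuclei at 94.8 and 35.9 CPM (-1.60), and the part of hepatocyte RNA in these values was not tested.

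Among the metalloproteinases outside the set, 5 of 18 tested in hepatocyte nuclei rose and none fell from Liver to Primary Hepatocytes (median 0.46), where 27.4% of all genes rose and 26.7% fell, so that the share that rose was near that of all genes. Mmp24, another membrane-anchored member, rose from 0.795 to 20.3 CPM (4.25 ± 0.23), and Mmp21 from 2.53 to 5.10 CPM (0.52). Mmp2, whose proenzyme MMP14 activates, stood at 0.233 and 0.194 CPM in hepatocyte nuclei and was not called (adjusted p = 0.227), while in stellate nuclei it fell from 21.4 to 9.64 CPM (-2.12). Of 17 other ADAMTS genes none rose, 6 fell and 11 were not called in hepatocyte nuclei (median -0.33). Adamts6 went from 62.5 to 34.0 CPM (-1.45) and Adamts7 from 16.6 to 8.15 CPM (-1.53). In endothelial nuclei 3 of 15 rose and 1 fell, beside 15.4% and 18.4% of all genes, among them Adamts4, which cuts aggrecan, from 5.45 to 39.7 CPM (2.60), and Adamts10, which went from 71.9 to 12.1 CPM (-2.82).

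Of 11 other protease inhibitors and activators tested in hepatocyte nuclei from Liver to Primary Hepatocytes, 7 were lower and 2 higher (median -1.04), where 26.7% of all genes fell and 27.4% rose. Reck, a membrane-bound inhibitor of MMP14 and other metalloproteinases, went from 21.2 to 4.24 CPM (-2.85) in hepatocyte nuclei and from 14.1 to 4.03 CPM (-1.73) in endothelial nuclei, and it also fell in stellate nuclei, from 95 to 51.2 CPM (-1.37). Tfpi2 went from 126 to 6.98 CPM (-4.73) and Pzp, a circulating protease trap, from 1623 to 195 CPM (-3.61). Timp4 was low and rose from 0.125 to 0.509 CPM (1.40, adjusted p = 0.0213). Of 7 ADAM sheddases 3 rose and 2 fell (median 0.15). Adam10, which releases Notch and other surface proteins, went from 95.3 to 227 CPM (0.71). Adam12 fell relative to the other genes (-0.60), while its CPM was nearly level at 24.8 and 23.5. Of 9 cathepsins, proteases of the lysosome, 5 rose and 1 fell (median 0.52), with Ctsb from 43.0 to 142 CPM (1.18) and Ctsh from 128 to 31.5 CPM (-2.55). Of 21 matrix substrates 5 rose and 2 fell (median -0.16). Nid1, which links laminin and collagen IV, rose from 1.52 to 57.1 CPM (4.69) and the laminin chain Lamc1 from 48.4 to 343 CPM (2.31).

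In endothelial nuclei 15.4% of all genes rose and 18.4% fell between Liver and Primary Hepatocytes. Of 8 other metalloproteinases tested 1 rose, Mmp24 (2.79), and 1 fell, Mmp28, from 19.5 to 2.27 CPM (-4.75). Of 10 other inhibitors and activators 1 rose and 4 fell, the riser being Bsg, the metalloproteinase inducer basigin, from 23.4 to 135 CPM (2.39). Of 7 sheddases 1 rose and 3 fell, and of 9 cathepsins 3 rose and 1 fell, with Ctsl from 81.3 to 308 CPM (1.78). Of 18 matrix substrates 3 rose and 5 fell, among them the collagen chains Col5a2, from 102 to 11.6 CPM (-3.27), and Col6a3 (-3.60). Plat was not called there (1.24, adjusted p = 0.112), nor was Timp4 (adjusted p = 0.201).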

How the data were processed

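Nuclei of 24 samples (8 mice, 3 groups) were labelled with hashtags, mixed in 6 pools of 4 and sequenced as droplet 3′ libraries. Per the labels and methods, the authors made the count matrices with Salmon Alevin 1.9.0 and alevin-fry 0.7.0 against GRCm38, as raw UMI counts that are spliced, unspliced or ambiguous, and the submitters' processing notes also name bcl2fastq 2.19.0. The deposited hashtag matrices (counts of hashtag UMIs) were not used further, because the authors' deposited list of nuclei assigns each nucleus to a sample, a cluster and a cell type. Nuclei that hashtags or scDblFinder marked as doublets were taken out by the authors before that list was made, and no other doublet step was run here. The hashtag named CD2 there was taken to mean mouse 2, Cell Suspension. The authors also deposited for each nucleus a demultiplexing margin as a fraction, which was not used. The nuclei held 61.3% to 70.7% of the UMIs of their pool.

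The 3 states were added and summed per sample and cell type, in samples with at least 10 nuclei. The main test, on genes with at least 10 counts, was the quasi-likelihood fit of edgeR 4.0.16 (R 4.3.3) with TMM factors and sample type as the only term, as in the study's own fit, with Benjamini-Hochberg adjustment over all genes and a threshold of 0.05. Differences between endothelial and hepatocyte nuclei were tested as an interaction with the sample as a block. Unspliced shares used samples with at least 20 UMIs of the gene and two-sided exact permutation tests over 8 against 8 samples, whose smallest p is 0.000155. These permutations did not use the pairing of samples by mouse. Alternatives included DESeq2 1.42.0, RLE scaling, other filters, the pool or the mouse as a term, single splicing states and leaving out each mouse. Those chosen after seeing the data were cluster 8, library sizes without scaling factors and the stellate and Kupffer comparisons with Primary Hepatocytes. Other steps used pandas 2.3.3, scipy 1.17.1, numpy 2.4.6 and matplotlib 3.10.9 in Python 3.11.15. The hepatocyte and endothelial fits and the interaction were checked on simulated data. For the interaction the check used genes with more UMIs than most of the set. The stellate and Kupffer fits and the permutation tests were not part of this check. The genes, lists, cluster reading and tests were chosen with earlier results of these data known. Genes outside the set were named as the 2 called genes of a list with the largest log2 change and at least 5 CPM in a group compared, with Mmp2, Plg, Plat, Reck and Timp4 in any case. The values of 1 further gene under this rule are not reported here.

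The 3 samples that share a mouse number are from 1 liver. The deviations of 3862 genes from the group mean correlated at 0.416 to 0.900 between Liver and Cell Suspension of a mouse (median 0.755, other mice -0.104), while for Primary Hepatocytes the median was 0.031 with Cell Suspension and 0.0593 with Liver.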

Additional observations from a re-analysis of the deposited data

Results flagged for a closer look

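In 26 of 131 groups of samples 1 sample stood far from the others. For continuous values the rule flags about 1 in 20 groups by chance. A group in which only 1 sample held a UMI reaches its largest value whatever the count, so these rates are not compared. The sample with the highest endothelial Adamts1 was the Cell Suspension of mouse 1, at 291 CPM against 62.2 to 138 in the others. Endothelial Timp3 in the culture of mouse 7 stood at 63.0 CPM (6 UMIs) against 9.09 to 16.1 in the others. Over all nuclei, the Cell Suspension of mouse 7 stood apart for Timp2 (5.91 CPM) and for Timp3 (17.7 CPM against 4.12 to 7.62). In stellate nuclei the Liver of mouse 4 was low for Timp2, at 25.4 CPM against 57.3 to 84.1.

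The other such samples rest on few UMIs. Timp1 was seen in the hepatocyte nuclei of 1 Liver (0.0418 CPM) and 1 Cell Suspension sample (0.0575 CPM, or 0.0563 over all nuclei), in endothelial nuclei of 1 culture (1.03 CPM) and, among the Liver samples, highest in the stellate nuclei of mouse 8 (3.45 CPM). Endothelial Mmp19 was 0 CPM in the Liver of mouse 2, and endothelial Mmp15 was 9.29 CPM in the culture of mouse 4. In stellate nuclei Mmp15 was 13.1 CPM in the Liver of mouse 1 and 7.07 CPM in the culture of mouse 5, Plaur 7.64 CPM in the Liver of mouse 7, and Mmp19 19.8 CPM in the Cell Suspension of mouse 6 and 15.3 CPM in the culture of mouse 1. The stellate nuclei of the Cell Suspension of mouse 3 were high for Timp3 (143 CPM) and Mmp14 (85.7 CPM), and those of the culture of mouse 2 for Timp3 (42.8 CPM). In Kupffer nuclei the flagged values were 2.55 CPM for Timp3 in the Liver of mouse 7, 3.50 CPM for Adamts1 in the Liver of mouse 4, 46.6 CPM for Mmp15 in the Cell Suspension of mouse 6, and 16.5 CPM for Timp3, 16.5 CPM for Mmp19 and 32.9 CPM for Adamts9 in the Cell Suspension of mouse 4.

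A test of the difference between endothelial and hepatocyte changes passed the threshold in 11 cases. From Liver to Cell Suspension these were Adamts1 (1.93) and Adamts9 (-1.07). From Cell Suspension to Primary Hepatocytes they were Adamts9 (3.17), Mmp15 (2.67), Mmp14 (-1.03) and Adamts1 (-2.48), and from Liver to Primary Hepatocytes Mmp15 (2.54), Adamts9 (2.09), Mmp14 (-0.82), Plaur (-1.32) and Timp2 (-1.71). The Mmp15 values rest on 31, 9 and 6 endothelial UMIs in the groups.

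Barcodes outside the nuclei, with under 100 UMIs each, also held RNA of 8 of the 10 genes above the limit that a count of 0 allows. Their UMIs over the 6 pools were 15 for Timp2, 15 for Timp3, 66 for Mmp14, 59 for Mmp15, 7 for Mmp19, 92 for Adamts1, 52 for Adamts9 and 43 for Plaur.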

How the results depend on the processing

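Of 2521 values of single genes recomputed under other settings, 2389 kept their direction and their side of the threshold or stayed uncalled, 148 of them with a change of sign that was not called either way, while 94 lost and 36 gained a call. The other 2 reversed, the cause was not tested: Adamts9 in hepatocyte nuclei between Cell Suspension and Primary Hepatocytes rose by 0.53 on library sizes without scaling factors, and the Plaur difference between cell types from Liver to Primary Hepatocytes was 0.044 on spliced and ambiguous UMIs. In hepatocyte nuclei the number of called genes was 0 from Liver to Cell Suspension with a log2 change of at least 1 required, and 5 from Liver to Primary Hepatocytes on unspliced UMIs, where fewer of the genes have counts. Over all nuclei it was 1 from Liver to Cell Suspension with the pool as a covariate or a change of at least 1 required, 1 to 2 without 1 mouse (1 without mouse 3, 5 or 8), and 5 in either culture comparison on unspliced UMIs. In stellate nuclei it was 0 with filterByExpr, 1 on spliced and ambiguous and 1 on unspliced UMIs from Cell Suspension to Primary Hepatocytes, and 2 to 3 without 1 mouse. From Liver to Primary Hepatocytes it was 3 with RLE, DESeq2 or unscaled library sizes, 2 with the pool as a covariate or on spliced and ambiguous UMIs, 0 with filterByExpr, and 3 to 5 without 1 mouse (3 without mouse 7). In Kupffer nuclei it was 0 on spliced and ambiguous UMIs in either culture comparison, 1 from Liver to Primary Hepatocytes with DESeq2, with the pool as a covariate or on unspliced UMIs, 0 to 2 without 1 mouse from Cell Suspension (0 without mouse 8, 2 without mouse 6) and 0 to 3 from Liver (0 without mouse 8, 1 without mouse 1, 2, 3, 4 or 5). The genes that differed between endothelial and hepatocyte nuclei from Liver to Cell Suspension were 1 in place of 2 with RLE, filterByExpr, unscaled library sizes, unspliced UMIs or no replicate block (sample), and 1 to 2 without 1 mouse (1 without mouse 1, 3, 6, 7 or 8). From Liver to Primary Hepatocytes they were 8 on unscaled library sizes, 3 on spliced and ambiguous or on unspliced UMIs, 4 without the sample block, and 3 to 6 without 1 mouse (3 without mouse 4). Of the tests of unspliced shares 1 was called in place of 2 with ambiguous UMIs left out or at least 50 UMIs required, where the comparison of Liver and Primary Hepatocytes could not be run. With the mouse as a replicate block, 2, 6 and 8 genes were called in hepatocyte nuclei in the order of the comparisons, 1, 4 and 6 in endothelial nuclei, 0, 2 and 5 in stellate nuclei, 2, 7 and 7 over all nuclei and 0, 1 and 2 in Kupffer nuclei. Over all nuclei the block took away Adamts9 from Cell Suspension to Primary Hepatocytes (0.77, adjusted p = 0.079) and Timp1 from Liver to Primary Hepatocytes (1.60, adjusted p = 0.0502). Kupffer nuclei with filterByExpr gave no value.

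Depth limited the genes with few UMIs most: Timp1 and Plau everywhere, Timp2 in endothelial nuclei and most genes in stellate and Kupffer nuclei of the later groups, where 1 UMI in a sample can be worth over 10 CPM. Liver and Primary Hepatocytes shared 2 of the 6 pools, so that pool and group are told apart by few samples.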

Other observations

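Genes whose levels ran most like those of the set were looked for over 18 combinations of cell type and sample type and 16399 genes, as the Pearson correlation r of mean log2(CPM + 1). The combinations share samples and differ in depth, so r is a description. Nearest to Adamts9 were Prickle2 (r = 0.946) and AC133601.1 (r = 0.919). Nearest to Timp3 were Heph (r = 0.943), an iron oxidase, and Gm12394 (r = 0.925), and nearest to Mmp15 were Map3k21 (r = 0.950) and Capn8 (r = 0.938). Mmp14 ran most like Osmr (r = 0.897), a cytokine receptor subunit, and Creb3l2 (r = 0.892). Plaur ran most like Ulk4 (r = 0.893) and Anxa5 (r = 0.872), and Adamts1 like Cdc42ep5 (r = 0.912) and Ccdc9b (r = 0.899). For Mmp19 they were Foxred1 (r = 0.910) and Pex16 (r = 0.900), and for Timp2 Nck2 (r = 0.812) and Plxdc2 (r = 0.807). Plau (Gm12404, r = 0.835, and Ctla2b, r = 0.821) and Timp1 (Zbtb8b, r = 0.962, and Hrct1, r = 0.946) had too few UMIs for their values to be read further.

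In Liver 18.6% of the Timp2 UMIs lay in cluster 28, which the authors' table annotates as biliary and in which 6 mesothelial markers summed to 5400 CPM. The nuclei of this cluster were 157 in Liver and 1 in Cell Suspension, with none in Primary Hepatocytes. Cluster 8, which was counted with no cell type, held Mmp14 at 54.6 CPM, Adamts1 at 69.0 CPM, Plaur at 38.1 CPM and Adamts9 at 15.0 CPM in Primary Hepatocytes samples.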
